A study of Mus musculus with 28 samples.

Results

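The 10 circadian clock genes Per1, Per2, Per3, Arntl, Clock, Npas2, Cry1, Cry2, Nr1d1 and Dbp were taken by symbol from the GENCODE M21 gene models of the mouse genome (GRCm38). They were 10 of the 49477 genes present in both count tables of a study of voluntary alcohol drinking. All 10 passed a filter at a mean of 10 counts that left 16266 genes for testing. Their mean counts per mouse ran from 411 for Cry1 to 2672 for Cry2, and no library had fewer than 301 counts for any of them. All 10 are protein-coding. The activator genes are Arntl (ENSMUSG00000055116, chr7:113207465-113314126, plus strand), Clock (ENSMUSG00000029238, chr5:76209868-76304792, minus strand) and Npas2 (ENSMUSG00000026077, chr1:39193731-39363236, plus strand). The repressor genes are Per1 (ENSMUSG00000020893, chr11:69095217-69109960, plus strand), Per2 (ENSMUSG00000055866, chr1:91415982-91459324, minus strand), Per3 (ENSMUSG00000028957, chr4:151003652-151044665, minus strand), Cry1 (ENSMUSG00000020038, chr10:85131700-85185064, minus strand) and Cry2 (ENSMUSG00000068742, chr2:92403646-92434043, minus strand). The second loop and the output are represented by Nr1d1 (ENSMUSG00000020889, chr11:98767932-98775333, minus strand) and Dbp (ENSMUSG00000059824, chr7:45705088-45710203, plus strand).

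RNA was sequenced from amygdala micropunches of 28 adult female C57BL/6J mice, with no genetic change named in the labels, prepared as 2 batches of 11 and 17 mice. All mice were housed singly and offered 2 drinking tubes over 28 days. The 10 Water mice received water only. The 9 Acute mice had a single session, on 1 day, with access to 20% ethanol beside water, and the 9 Chronic mice had such access every other day, on 14 days. On day 29 all were killed 2 h after lights on, under brief isoflurane anesthesia, with the tubes left in place until then. Total counts per library were 20004380 to 22569562. Every library came from 1 clock time, so a phase or an amplitude of the daily rhythm could not be read from these data.

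The molecular clock is a transcriptional feedback loop. The protein of Arntl, also called BMAL1, pairs with CLOCK or its relative NPAS2 and switches on the Per and Cry genes, and the PER and CRY proteins return to the nucleus to silence that pair. Nr1d1 encodes the nuclear receptor REV-ERB alpha, which represses Arntl and closes a further loop, and Dbp encodes a transcription factor that carries the rhythm to output genes. In the brain these genes cycle in the suprachiasmatic nucleus and in many other regions, the amygdala among them, and Per1 and Per2 also respond within hours to neuronal activity and to glucocorticoid hormones.

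The loop acts through short DNA elements. RefSeq promoter windows, 250 bases before to 50 after each start on GRCm38.p6, were matched for 9 of the 10 genes, all but Per2, as 13 windows. They were searched on both strands for the E-box CACGTG and its variant CACGTT, both read by the ARNTL pair, for the D-box TTATGTAA read by DBP and its relatives, for the ROR element core TAGGTCA read by REV-ERB and ROR receptors, and for the cAMP response element TGACGTCA. The E-box stood in the Per1 and Cry1 windows (7.15% of all 32851 windows held it) and the variant in Cry1, Cry2 and Nr1d1 (4.68% of all windows). The D-box stood in Per3 alone, at 2 places (0.938% of all), and the ROR core in Arntl alone (2.61% of all), within its transcribed part. The cAMP response element was in none of the 13 member windows and in 1.79% of all. The 5 stretches below hold the elements that lie before the start. They are shown because elements of this kind are how clock proteins act on clock genes.

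The stretches, printed 5′ to 3′ with E-box, variant or D-box letters in capitals, were chr11:69098699-69098947 on the plus strand for Per1 and, on the minus strand, chr10:85185065-85185304 for Cry1, chr2:92434070-92434319 for Cry2, chr11:98775378-98775627 for Nr1d1 and chr4:151044666-151044915 for Per3 (RefSeq sequence, GRCm38.p6), each free of annotated GENCODE exons.
Per1: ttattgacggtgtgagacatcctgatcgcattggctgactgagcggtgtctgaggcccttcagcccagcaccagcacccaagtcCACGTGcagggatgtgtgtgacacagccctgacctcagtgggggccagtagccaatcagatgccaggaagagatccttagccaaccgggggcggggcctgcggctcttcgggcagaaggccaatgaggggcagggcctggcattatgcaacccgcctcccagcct
Cry1: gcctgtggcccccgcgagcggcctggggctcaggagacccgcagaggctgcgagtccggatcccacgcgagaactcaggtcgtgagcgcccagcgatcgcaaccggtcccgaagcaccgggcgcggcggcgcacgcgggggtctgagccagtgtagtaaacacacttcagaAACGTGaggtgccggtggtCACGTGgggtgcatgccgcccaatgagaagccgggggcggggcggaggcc
Cry2: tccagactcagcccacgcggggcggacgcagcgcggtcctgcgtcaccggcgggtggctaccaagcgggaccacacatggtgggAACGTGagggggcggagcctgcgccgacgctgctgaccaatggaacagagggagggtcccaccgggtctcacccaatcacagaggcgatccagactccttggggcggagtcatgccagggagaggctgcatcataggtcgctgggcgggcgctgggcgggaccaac
Nr1d1: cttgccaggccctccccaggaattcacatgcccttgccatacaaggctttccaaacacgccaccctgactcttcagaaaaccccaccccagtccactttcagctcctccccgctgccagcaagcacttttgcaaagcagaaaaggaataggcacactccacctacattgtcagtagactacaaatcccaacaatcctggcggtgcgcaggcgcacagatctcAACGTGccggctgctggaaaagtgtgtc
Per3: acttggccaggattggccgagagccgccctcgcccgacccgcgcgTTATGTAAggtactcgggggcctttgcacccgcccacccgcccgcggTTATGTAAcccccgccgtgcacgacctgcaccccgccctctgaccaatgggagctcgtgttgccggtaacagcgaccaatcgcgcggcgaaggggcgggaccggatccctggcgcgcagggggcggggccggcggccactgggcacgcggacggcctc
The Per1 E-box began 166 bases before the start and the Cry1 E-box 60. The Cry1 variant began 79 bases before the start. The variant began 166 bases before the start in Cry2 and 28 in Nr1d1, and the D-boxes of Per3 began at 205 and 158. A match of letters is a description and does not show that a protein is bound there.

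Compared per kilobase of merged exons, the scale on which levels of different genes can be set side by side, the transcript of the repressor Nr1d1 was the most abundant of the 10 in Water mice, at 35.0 ± 3.30 CPM per kilobase (SD, n = 10), CPM being counts scaled to a common library size. Cry2 (19.9 ± 1.20), Dbp (19.6 ± 1.84) and Per1 (16.7 ± 1.04) came next, and the ranges of mean ± SD overlapped between Cry2 and Dbp and between Dbp and Per1. Npas2 followed at 13.4 ± 1.08, so that in this tissue the level of Npas2 exceeded that of its relative Clock (6.61 ± 0.417) on this scale. Per2 (7.64 ± 0.442), Cry1 (6.10 ± 0.502), Arntl (5.05 ± 0.229) and Per3 (3.49 ± 0.440) were lower, and the ranges of mean ± SD overlapped between Clock and Cry1. With the length of the longest transcript in place of merged exons, Dbp and Cry2 changed places and Arntl moved from rank 9 to rank 6. The order from Per2 to Arntl therefore depends on the gene models used.

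**Figure D1:**
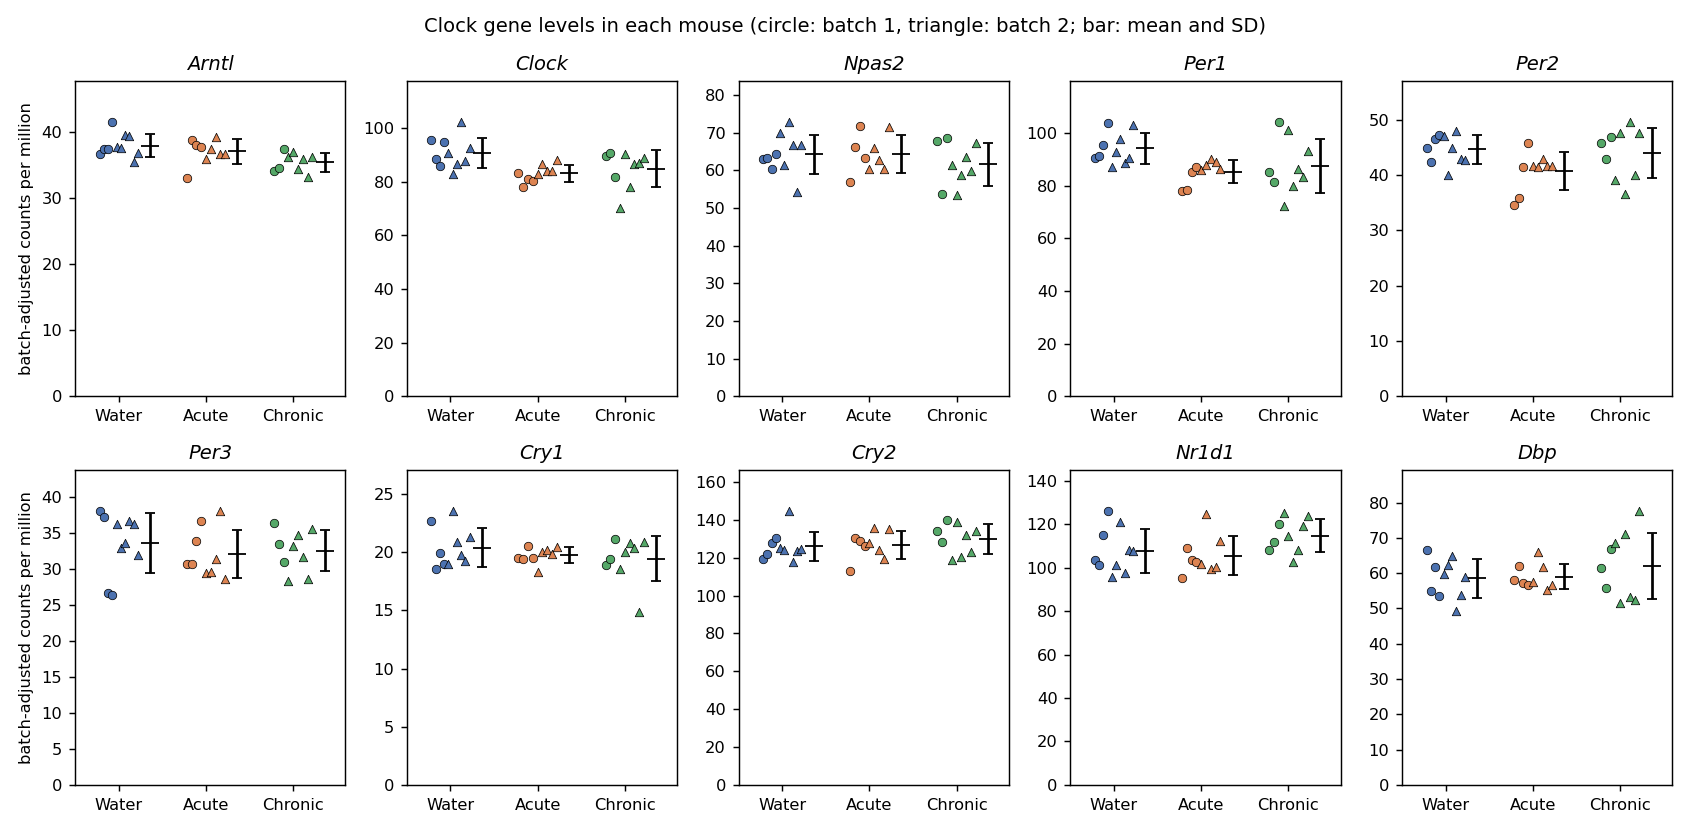
Batch-adjusted level (CPM, linear axes from 0) of each clock gene in each mouse, by drinking group; circles are batch 1, triangles batch 2, and the bar beside each group is its mean and SD (Water n = 10, Acute n = 9, Chronic n = 9). The 3 groups overlap for each of the 10 genes; the 9 Acute mice lie between 78.0 and 90.1 for Per1 and between 78.1 and 88.1 for Clock.

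Drinking was not accompanied by a difference in any clock gene that passed correction over the genes tested. With edgeR's quasi-likelihood test and Benjamini-Hochberg adjustment, 0 of 10 clock genes had an adjusted p below 0.05 in Acute versus Water, Chronic versus Water or Chronic versus Acute. The same threshold was passed by 0.0% of all genes in the first comparison, 0.0184% (3 genes) in the second and 0.0% in the third, and DESeq2 and limma-voom also called 0 clock genes in each. Values given below as CPM are levels with the mean difference between batches removed, and log2 differences are fitted with batch as a covariate.

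Among the activators, Clock was the gene with the smallest p in the Acute comparison. Its lowest, median and highest levels were 82.7, 89.6 and 102 CPM in Water, 78.1, 83.3 and 88.1 in Acute, and 70.0, 86.9 and 90.7 in Chronic mice. All 9 Acute mice were below the Water median and 4 were below the lowest Water mouse, while the ranges overlapped. The log2 difference from Water was -0.13 (SE 0.043) in Acute mice, a fold of 0.915 (edgeR p = 0.00538, adjusted p = 0.407; exact permutation within batches, two-sided, p = 0.00216). In Chronic mice it was -0.099 (SE 0.043; edgeR p = 0.0274, adjusted p = 0.407; exact permutation p = 0.0626). The Clock difference was smaller in fits with offsets for GC content and length, and the cause was not tested. Clock had the lowest GC content of the 10 genes (40.9%) and the most exonic bases (13727), and with offsets for GC content and length it was -0.052 in Acute (edgeR p = 0.113) and -0.018 in Chronic mice (edgeR p = 0.569). With a summary of neuron markers as a covariate it was -0.071 (edgeR p = 0.108) and -0.066 (edgeR p = 0.104).

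Arntl, the partner of both other activators, was the steadiest of the 10 genes. Its lowest, median and highest levels were 35.5, 37.5 and 41.5 CPM in Water, 33.0, 37.5 and 39.2 in Acute, and 33.2, 35.9 and 37.4 in Chronic mice. All 9 Chronic mice were below the Water median and 4 were below the lowest Water mouse. The Chronic difference from Water was -0.099 log2 (SE 0.033), a fold of 0.934, with edgeR p = 0.00602, adjusted p = 0.272 and exact permutation p = 0.0039. It was -0.11 in batch 1 and -0.089 in batch 2. In Acute mice the difference from Water was -0.034 (SE 0.033; edgeR adjusted p = 0.768). Npas2, which can stand in for Clock, gave 54.3, 63.8 and 72.8 CPM in Water, 56.8, 63.3 and 71.8 in Acute and 53.5, 61.3 and 68.7 in Chronic mice, as lowest, median and highest. The groups overlapped almost wholly, and the log2 differences from Water were 0.0013 (SE 0.055) in Acute and -0.062 (SE 0.055) in Chronic mice.

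Of the repressors, Per1 and Per2 had lower values after the single session, without passing correction over all genes. The lowest, median and highest levels of Per1 were 87.3, 92.1 and 104 CPM in Water, 78.0, 86.4 and 90.1 in Acute and 72.3, 85.3 and 104 in Chronic mice. All 9 Acute mice were below the Water median and 5 were below the lowest Water mouse. The Acute difference from Water was -0.14 log2 (SE 0.052), a fold of 0.906 (edgeR p = 0.0111, adjusted p = 0.457; exact permutation p = 0.00124). With a summary of central amygdala markers as a covariate it was -0.10 (edgeR p = 0.0707). Chronic mice spread more widely: 6 of 9 were below the lowest Water mouse and 1 was above the highest, with a difference of -0.11 (SE 0.052; edgeR p = 0.0503, adjusted p = 0.478; exact permutation p = 0.0925). Per1 had an unadjusted p below 0.05 in this comparison under 9 of 18 alternative settings (edgeR or DESeq2), among them offsets for GC content and length (-0.14; edgeR p = 0.00512) and the replicate block (-0.11; edgeR p = 0.0384), with adjusted p of at least 0.29.

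Per2 gave 40.1, 44.9 and 47.9 CPM in Water, 34.7, 41.7 and 45.8 in Acute and 36.6, 45.9 and 49.6 in Chronic mice, as lowest, median and highest. In 8 of 9 Acute mice Per2 was below the Water median, and the 2 lowest mice of the series were Acute. The Acute difference was -0.13 log2 (SE 0.055), a fold of 0.913 (edgeR p = 0.0233, adjusted p = 0.477; exact permutation p = 0.0166). Without Acute mouse 33 of batch 1 it was -0.11 (edgeR p = 0.055), and without Acute mouse 34 also -0.11 (edgeR p = 0.0568). It was -0.20 in batch 1 (edgeR p = 0.0274) and -0.082 in batch 2 (edgeR p = 0.251), -0.11 with limma-voom (p = 0.0598), -0.10 with 2 surrogate variables (edgeR p = 0.057) and -0.080 with a summary of central amygdala markers as a covariate (edgeR p = 0.171). Chronic mice differed from Water by -0.022 (SE 0.055) and from Acute by 0.11 (SE 0.057; edgeR p = 0.0612, adjusted p = 0.998), so a difference between the drinking groups in Per2 was not shown.

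Per3, the family member with the weakest part in the loop, ranged from 26.3 to 38.0 CPM in Water (median 34.9), from 28.6 to 38.0 in Acute (median 30.7) and from 28.3 to 36.4 in Chronic mice (median 33.2). The log2 differences from Water were -0.065 (SE 0.070) and -0.045 (SE 0.070), smaller than their errors. In batch 1 alone both had the other sign, 0.038 and 0.069. The Acute difference was -0.12 (SE 0.055; edgeR p = 0.0316) with 2 surrogate variables and -0.11 (SE 0.053; edgeR p = 0.0394) with summaries of pallial, striatal and oligodendrocyte markers as covariates, and the lowest adjusted p of the 18 alternatives was 0.398.

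The 2 cryptochromes, the stronger repressors at the protein level, did not separate the groups. Cry1 ranged from 18.6 to 23.6 CPM in Water (median 19.9), from 18.3 to 20.5 in Acute (median 19.8) and from 14.9 to 21.1 in Chronic mice (median 20.0), with log2 differences from Water of -0.046 (SE 0.053) and -0.069 (SE 0.053). Cry2 ranged from 118 to 145 CPM in Water (median 124), from 113 to 136 in Acute (median 128) and from 119 to 139.9 in Chronic mice (median 132), with differences of 0.0084 (SE 0.039) and 0.045 (SE 0.039). The 95% interval of the Cry2 difference was -0.072 to 0.089 in Acute mice.

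Nr1d1 and Dbp had higher medians in Chronic mice than in Water mice. For Nr1d1 the lowest, median and highest levels were 95.6, 105 and 126 CPM in Water, 95, 102 and 125 in Acute and 102, 115 and 125 in Chronic mice. All 9 Chronic mice were above the Acute median and 8 of 9 above the Water median, though only 1 exceeded the highest Acute mouse. The Chronic minus Acute difference was 0.12 log2 (SE 0.055), 8.86% higher (edgeR p = 0.0324, adjusted p = 0.998; exact permutation p = 0.039), and leaving out any of 8 single mice took the edgeR p above 0.05, to at most 0.0645. The unadjusted p was below 0.05 in 11 of 18 alternative settings, and not within either batch, with GC and length offsets or with the pallial, striatal and oligodendrocyte or the central amygdala summaries as covariates. The differences from Water were 0.092 (SE 0.053; edgeR p = 0.0935) in Chronic and -0.031 (SE 0.053) in Acute mice. With offsets for GC content and length the Chronic difference from Water was 0.049 (edgeR p = 0.341).

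Dbp, the output gene whose cycle is among the deepest in many tissues, ranged from 49.4 to 66.5 CPM in Water (median 59.3), from 55.1 to 66.0 in Acute (median 57.5) and from 51.6 to 77.7 in Chronic mice (median 61.3). The Acute mice lay wholly within the Chronic range, with 3 Chronic mice below the lowest Acute mouse and 4 above the highest. The log2 difference from Water was 0.012 (SE 0.069) in Acute and 0.084 (SE 0.069) in Chronic mice, with 95% intervals of -0.13 to 0.15 and -0.058 to 0.23. With offsets for GC content and length the Chronic value was 0.014, and 0.006 with the replicate block as well.

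**Figure D2:**
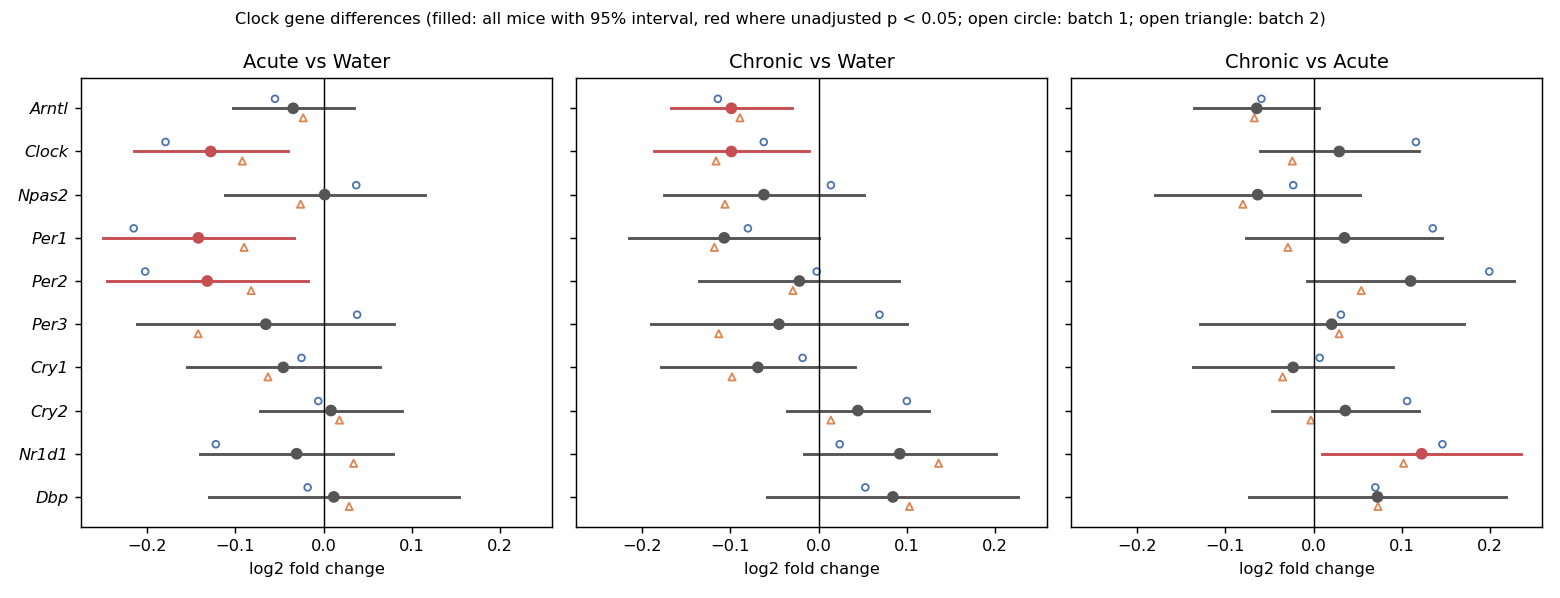
Log2 fold change of each clock gene in the 3 comparisons; filled points are the fit over both batches with the 95% interval, red where the unadjusted edgeR p is below 0.05, open circles are batch 1 alone and open triangles batch 2 alone. The 6 red points are Clock, Per1 and Per2 in Acute versus Water (-0.13, -0.14 and -0.13), Arntl and Clock in Chronic versus Water (-0.099 each) and Nr1d1 in Chronic versus Acute (0.12).

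At an unadjusted p below 0.05, 3 of 10 were lower and 0 higher in Acute versus Water, where 9.52% of all genes passed in either direction, 4.45% lower and 5.07% higher. In Chronic versus Water 2 of 10 were lower and 0 higher, against 10.5% of all genes, 5.65% lower and 4.81% higher. In Chronic versus Acute 1 of 10 was higher and 0 lower, against 4.44% of all genes, 1.95% higher and 2.5% lower. With so few members, these counts describe the genes named and no more. The median log2 difference of the 10 genes was -0.040 in Acute and -0.053 in Chronic mice, beside 0.0011 and 0.0022 over all genes tested, and 7 of 10 were below Water in each, as were 49.4% and 49.0% of all genes. In Chronic versus Acute 3 of 10 were lower, beside 50.6% of all genes. These comparisons share the Water mice, and the third shares mice with both. No clock gene differed from Water by more than 0.14 log2, and the 95% intervals lay between -0.25 and 0.15 in Acute and between -0.22 and 0.23 in Chronic mice.

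The batches were compared directly. Dbp was 0.29 log2 higher in batch 2 than in batch 1, Cry2 0.20 higher and Per1 0.024 higher, shifts that the fit removes. The test of whether a drinking difference itself changed between batches (an interaction term in edgeR) gave no clock gene with p below 0.05 in either comparison with Water. The smallest p was 0.157, for Nr1d1 in Acute mice, and the test passed that level for 4.13% and 6.15% of all genes in the Acute and Chronic comparisons. Within batches the Acute difference of Per1 was -0.22 in batch 1 and -0.090 in batch 2, and that of Clock was -0.18 and -0.092, with the same direction in both but an edgeR p below 0.05 only in batch 1 (0.0135 and 0.00465, against 0.182 and 0.14).

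Genes next to the core loop were read from 2 lists. Of 12 genes of interlocked loops and outputs, 1 was lower in Acute versus Water at an unadjusted p below 0.05 and 0 were higher, where 9.52% of all genes passed. That gene was Hlf, a close relative of Dbp, with a log2 difference of -0.15 (SE 0.057; edgeR p = 0.0143, adjusted p = 0.462) and all 9 Acute mice below the Water mean. In Chronic versus Water 0 of the 12 passed that level (10.5% of all genes), and in Chronic versus Acute 2 did (4.44% of all genes): Bhlhe41, a repressor of ARNTL-driven transcription, at 0.12 (SE 0.052; edgeR p = 0.0296), and Nfil3, which competes with DBP at D-boxes, at -0.15 (SE 0.064; edgeR p = 0.0246). Of 13 kinases, ubiquitin ligases and cofactors of clock proteins, 1 passed that level in Acute versus Water (9.52% of all genes). Nampt, the enzyme of NAD salvage, was lower in Acute (-0.092, SE 0.040; edgeR p = 0.028) and in Chronic mice (-0.098, SE 0.040; edgeR p = 0.0201). In Chronic versus Acute 0 of the 13 passed that level. No gene of either list had an adjusted p below 0.05 in any of the 3 comparisons.

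Hormone and activity signals that reach Per1 were read in the same way. Of 8 glucocorticoid response genes, 3 had an unadjusted p below 0.05 in Acute versus Water and all 3 were higher: Tsc22d3 (0.16, SE 0.060), Cdkn1a (0.22, SE 0.077) and Sult1a1 (0.31, SE 0.14), with adjusted p of 0.43 to 0.498. At that level 5.07% of all genes were higher, and by sign alone 5 of the 8 were higher and 3 lower, Zbtb16 (-0.13), Pdk4 (-0.078) and Errfi1 (-0.037). Sgk1 (-0.26, SE 0.095) and Sult1a1 (-0.42, SE 0.14) were below their Acute level in Chronic mice with a p under 0.05 (edgeR p = 0.00994 and 0.00707, adjusted p = 0.998). Of the 10 immediate early genes listed, 9 were in both tables and 0 of those 9 passed that level in any comparison. Fos (0.19, SE 0.097; edgeR p = 0.0623) and Dusp1 (0.18, SE 0.10; edgeR p = 0.0905) in Acute versus Water and Nr4a1 in Chronic versus Acute (-0.15, SE 0.094; edgeR p = 0.127) came nearest.

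The clock genes were compared from mouse to mouse once batch and group means were taken out. Over the 28 mice, 34 of the 45 pairs had a positive Pearson r, and the median r was 0.197, beside -0.001 over all 132283245 pairs of genes tested. An r of 0.5 or more was seen in 6 pairs (13.3%, against 2.44% of all gene pairs) and an r of -0.5 or less in 1 pair (2.22%, against 2.01%). The permutation test, which shuffled mice within batch and group 100000 times, left 2 pairs with an adjusted p below 0.05 over the 45 pairs, and 13 pairs had an unadjusted p below 0.05.

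The closest pair was Per1 and Cry2, both repressors, with r = 0.632 and Spearman's rho = 0.640 (permutation p = 0.00074 and 0.00062, adjusted p = 0.0225 and 0.0279). Its r was 0.66 in the 11 mice of batch 1 and 0.6 in the 17 of batch 2 (adjusted p = 0.228 and 0.38). Without the 2 mice farthest from the median of Per1, r was 0.538 (permutation p = 0.00668, adjusted p = 0.152), so the call was lost in each of these subsets. Cry2 and Nr1d1 came next among the called pairs, with r = 0.588 and rho = 0.547 (permutation p = 0.001 and 0.00442, adjusted p = 0.0225 and 0.0616). Its r was 0.808 in batch 1, 0.574 in batch 2 and 0.483 without the 2 farthest mice (permutation adjusted p = 0.07, 0.395 and 0.152). Per1 and Per2, the paralogs that were both lower in Acute mice, gave r = 0.591 and rho = 0.602 (permutation p = 0.00756 and 0.00559, adjusted p = 0.068 and 0.0616), with 0.547 without the 2 farthest mice. These r values varied between groups. Within Water, Acute and Chronic mice r was 0.533, 0.278 and 0.916 for Per1 and Cry2. For Cry2 and Nr1d1 it was 0.741, 0.854 and 0.078, and for Per1 and Per2 -0.035, 0.905 and 0.711. Differences of r between groups were not tested.

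**Figure D3:**
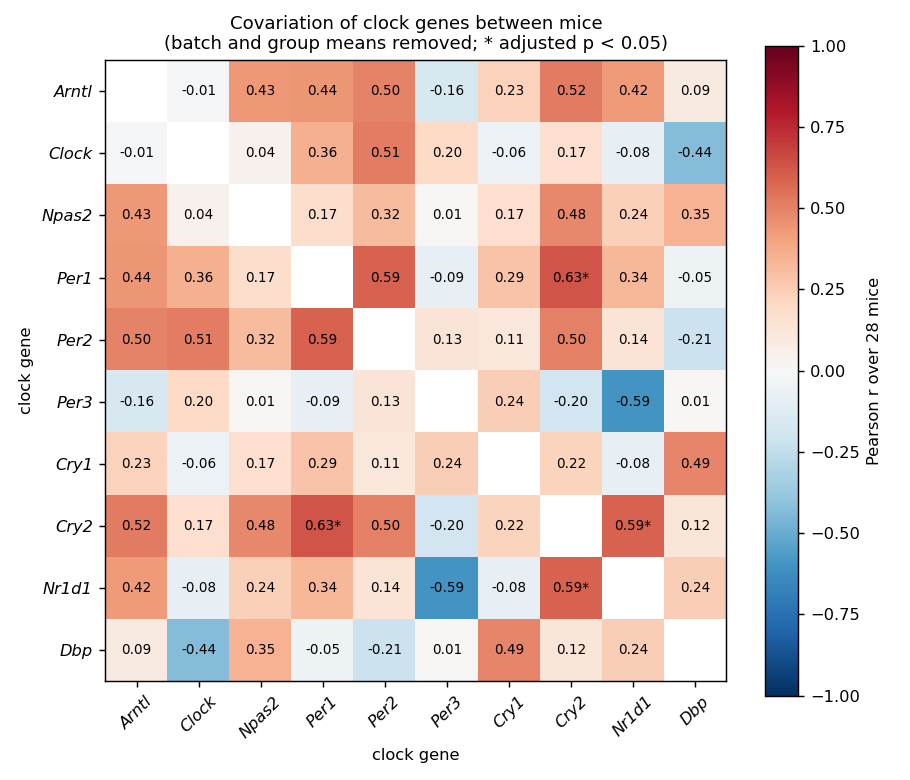
Pearson r between each pair of clock genes over 28 mice, from log2 CPM with batch and group means removed; color runs from -1 (blue) to 1 (red), and a star marks an adjusted permutation p below 0.05 over 45 pairs. The row of Cry2 holds both starred pairs, 0.63 with Per1 and 0.59 with Nr1d1, and Per3 with Nr1d1 is the lowest at -0.595 (unstarred).

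Arntl and Clock, whose proteins bind each other, had r = -0.009 and Clock and Npas2 r = 0.045, whereas Arntl and Npas2 had r = 0.430 and rho = 0.420 (permutation p = 0.0374 and 0.0416, adjusted p = 0.14 and 0.156). With summaries of pallial, striatal and oligodendrocyte markers removed as well, the r of Arntl and Npas2 was -0.055. Dbp, a direct target of the ARNTL pair, had r = 0.087 with Arntl and 0.245 with Nr1d1. Dbp and Clock, at the 2 ends of the 10 genes in GC content (61.6% and 40.9%), had r = -0.437 and rho = -0.461 (permutation p = 0.0847 and 0.0335, adjusted p = 0.238 and 0.137). That r was -0.069 with GC and length trends removed and -0.303 without the 2 farthest mice. The lowest r of all was between Per3 and Nr1d1, at -0.595 with rho = -0.549 (permutation p = 0.00488 and 0.00684, adjusted p = 0.068 and 0.0616). It was -0.755 in batch 1, -0.446 in batch 2 and -0.476 without the 2 farthest mice.

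**Figure D4:**
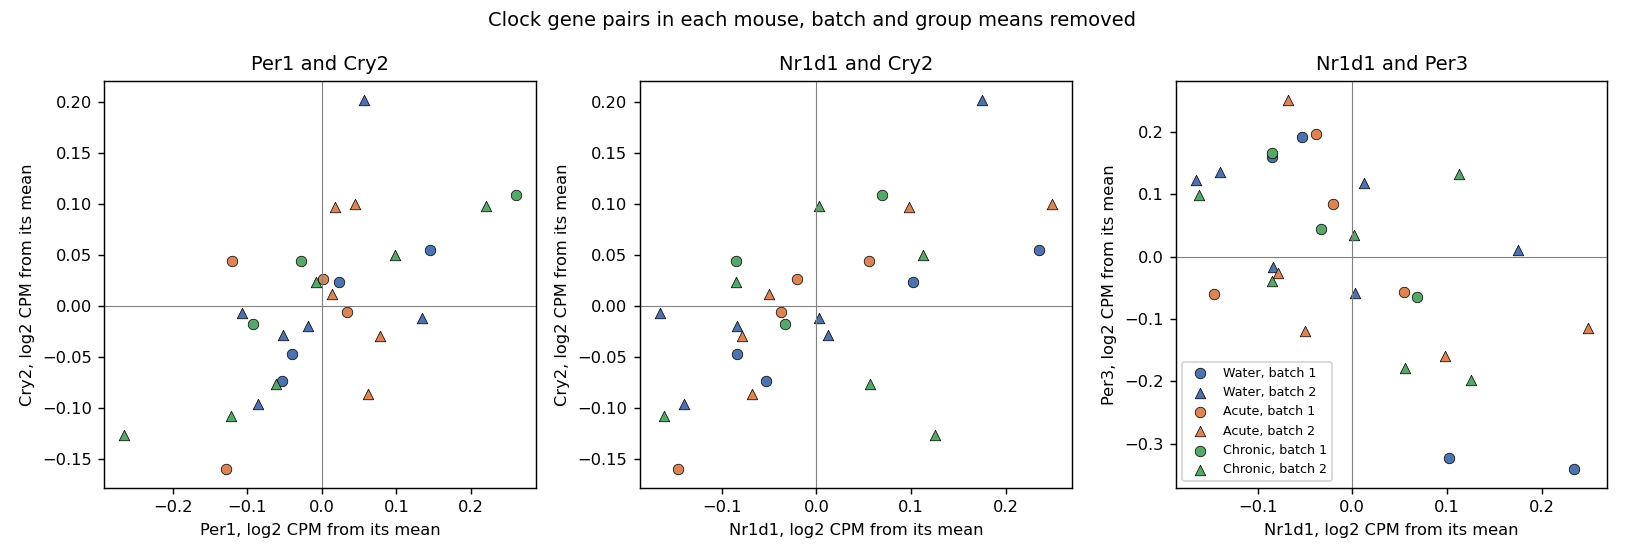
Per1 against Cry2, Nr1d1 against Cry2 and Nr1d1 against Per3 in each of 28 mice, as log2 CPM with additive batch and group effects removed. Color gives the group and the symbol the batch. The points rise together for Per1 and Cry2 (r = 0.632) and for Nr1d1 and Cry2 (r = 0.588) and run opposite for Nr1d1 and Per3 (r = -0.595), where 2 Water mice of batch 1 lie lowest for Per3.

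The spread between mice differed among the genes. The residual SD in log2 CPM was 0.067 for Arntl, at the 9.1th percentile of all genes, and 0.163 for Per3 and 0.158 for Dbp, the widest of the 10. The median over the 10 genes was 0.119, beside 0.138 over all genes tested. Among genes of similar mean count, Dbp stood at the 90.1th percentile, Per3 at 88.0, Npas2 at 81.9, Nr1d1 at 80.6 and Per1 and Per2 at 79.7 each, Clock at 65.3, Cry2 at 58.6, Cry1 at 56.3 and Arntl at 9.9. Counting error alone would give an SD of 0.052 for Arntl and 0.041 for Dbp.

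The punches held genes of the amygdala and of its neighbours. The central amygdala genes Prkcd (22.7 to 49.8 CPM) and Tac2 (10.5 to 39.8 CPM), the pallial excitatory gene Slc17a7 (792 to 1570 CPM) and the striatal genes Drd2 (10.4 to 82.4 CPM) and Adora2a (16.5 to 93.5 CPM) were present in every mouse. The mean log2 CPM of 8 striatal markers ran from 4.75 to 6.99 in Water, 5.46 to 6.66 in Acute and 5.18 to 6.41 in Chronic mice, and 8 of 8 were lower in Chronic than in Water mice (median log2 difference -0.40, 2 with an unadjusted p below 0.05) and than in Acute mice (median -0.40, 1 below 0.05), where 49.0% and 50.6% of all genes were lower. The 6 central amygdala markers were all above Water in Acute mice (median 0.25, 1 below 0.05) and in Chronic mice (median 0.11, 0 below 0.05). Of all genes, 49.4% and 49.0% were below Water in these comparisons, and 5.07% and 4.81% were higher with an unadjusted p below 0.05. Of the 7 pallial markers 6 were below Water in Acute mice (median -0.080, 1 below 0.05). Of all genes 49.4% were lower there, 4.45% with an unadjusted p below 0.05. No marker of these 3 lists had an adjusted p below 0.05. Of the 10 neuron and the 10 astrocyte markers, 3 of each were higher in Acute mice at an unadjusted p below 0.05 and 0 of each lower, where 5.07% of all genes were higher. By sign alone 7 of the neuron markers were higher and 3 lower (median 0.040). Of the astrocyte markers 4 were higher and 6 lower (median -0.0039). The neuron summary ran from 9.09 to 9.21 log2 CPM in Water, 9.15 to 9.29 in Acute and 9.14 to 9.25 in Chronic mice. In bulk tissue, fewer cells of a type and less RNA per cell cannot be told apart.

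Cry2, Npas2 and Nr1d1 moved with marker or response genes across mice. Among 150 relations of the 10 genes to 15 summaries of each library, 5 had an adjusted permutation p below 0.05. Cry2 rose with the mean of 9 immediate early genes (r = 0.778, rho = 0.821; both permutation p = 1e-05, the smallest that 100000 shuffles can give; adjusted p = 0.0015), at 0.869 and 0.737 within batches and 0.707 without the 2 farthest mice. Cry2 (r = 0.655, rho = 0.719; permutation p = 0.0001 and 0.00014; adjusted p = 0.0075; 0.633 without the 2 farthest mice) and Npas2 (r = 0.663, rho = 0.635; permutation p = 0.00024 and 0.00045; adjusted p = 0.012; 0.555 without them) rose with the 7 pallial excitatory markers. Npas2 is known for its expression in the forebrain cortex, and both relations held within batch 1 (0.772 and 0.745) and batch 2 (0.612 and 0.602).

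Nr1d1 ran opposite to the 10 oligodendrocyte markers (r = -0.655, rho = -0.603; permutation p = 0.00075 and 0.002; adjusted p = 0.0281) and to the 10 endothelial markers (r = -0.651, rho = -0.620; permutation p = 0.00098 and 0.00115; adjusted p = 0.0294). Without the 2 farthest mice these were -0.540 and -0.569, and within batches -0.860 and -0.526 for the first and -0.830 and -0.542 for the second. Mbp, 1 of the oligodendrocyte markers, stood at 65.3 to 84.1 CPM in batch 1 and 1020 to 1480 CPM in batch 2, and without it the other 9 gave r = -0.659 with Nr1d1 (permutation p = 0.00065, adjusted p = 0.0244). With the striatal markers Per3 had r = 0.726 and rho = 0.677 (permutation p = 0.00443 and 0.00246, adjusted p of r 0.0738), at 0.916 in batch 1 and 0.475 in batch 2. Clock had r = -0.498 and rho = -0.610 with the 10 neuron markers (permutation p = 0.0123 and 0.00337, adjusted p of r 0.107), at -0.789 in batch 1 and -0.377 in batch 2. Per1 had its highest r with the glucocorticoid genes, 0.529, and with the immediate early genes, 0.519, and neither passed the adjustment.

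**Figure D5:**
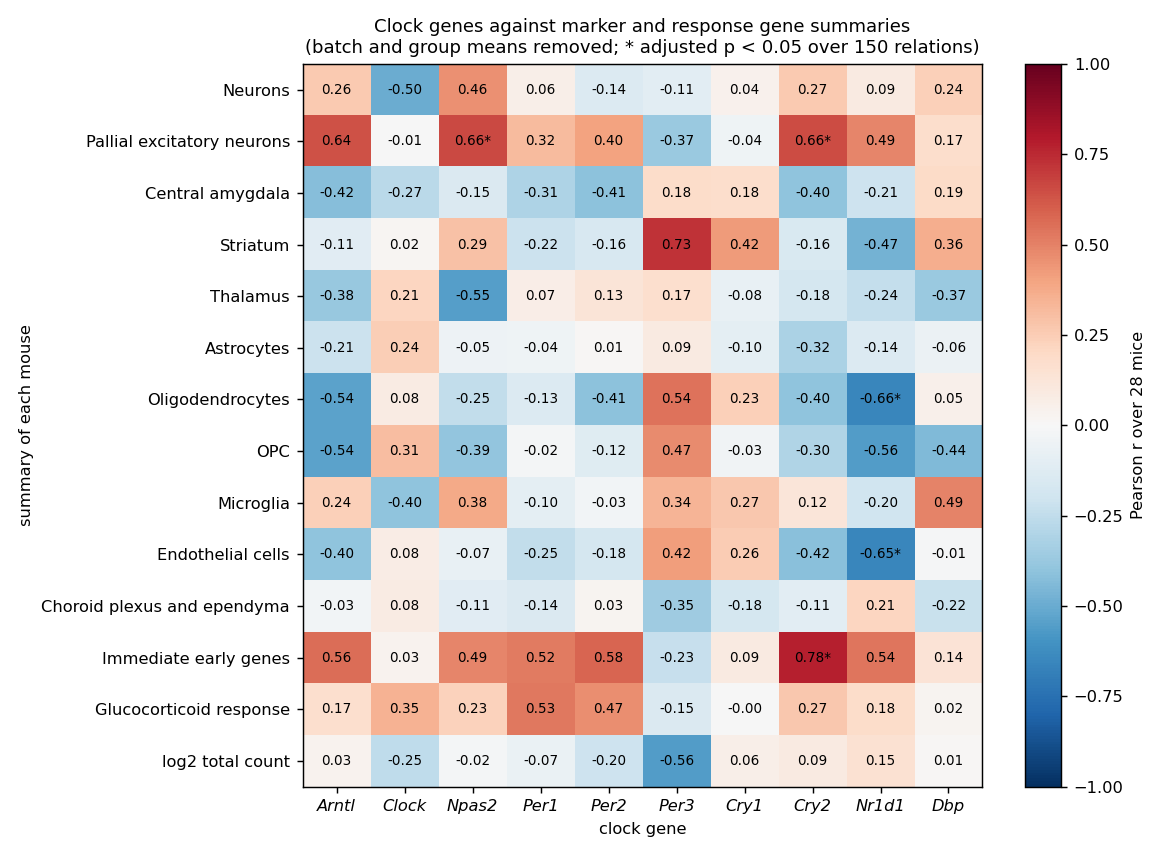
Pearson r over 28 mice between each clock gene (columns) and 14 summaries of each mouse (rows: mean log2 CPM of each marker or response list, and log2 total count), batch and group means removed; a star marks an adjusted permutation p below 0.05 over 150 relations. The 5 stars are Cry2 with immediate early genes (0.78) and pallial markers (0.66), Npas2 with pallial markers (0.66), and Nr1d1 with oligodendrocyte (-0.66) and endothelial markers (-0.65).

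The drinking differences and the pairs were therefore refitted with the pallial, striatal and oligodendrocyte summaries as covariates, a choice made after the data were seen. The Acute difference of Per1 was then -0.11 (SE 0.051; edgeR p = 0.0399), of Clock -0.13 (SE 0.045; edgeR p = 0.00923) and of Per2 -0.10 (SE 0.054; edgeR p = 0.0639), while Per3 had -0.11 (SE 0.053; edgeR p = 0.0394) and, in Chronic versus Acute, 0.12 (SE 0.059; edgeR p = 0.0455). Between the drinking groups Nr1d1 was then at 0.095 (edgeR p = 0.0573), no longer below 0.05, and Arntl at -0.069 (edgeR p = 0.0452). In Chronic versus Water Arntl was -0.080 (edgeR p = 0.015), Clock -0.10 (edgeR p = 0.0341), Per1 -0.13 (edgeR p = 0.0187) and Nr1d1 0.10 (edgeR p = 0.0283), and the adjusted p of every clock gene stayed above 0.05. With the summaries removed, Per1 and Cry2 had r = 0.601 (permutation p = 0.00354, adjusted p = 0.063), Cry2 and Nr1d1 0.508 (adjusted p = 0.127) and Per3 and Nr1d1 -0.374 (adjusted p = 0.331), so 0 pairs passed.

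The central amygdala summary, which was higher in Acute mice, was then used alone as a covariate, likewise after the data were seen. Its markers include Nts, which the paper lists as higher in Acute mice. The fit therefore cannot tell the content of the punches from a response to drinking. Across mice this summary had r = -0.307 with Per1, -0.412 with Per2 and -0.273 with Clock, none past the adjustment. With it in the fit, the Acute difference from Water was -0.10 for Per1 (SE 0.056; edgeR p = 0.0707), -0.080 for Per2 (SE 0.057; edgeR p = 0.171) and -0.10 for Clock (SE 0.046; edgeR p = 0.0356), so 1 in place of 3 clock genes had an unadjusted p below 0.05. Against Water, Chronic Arntl (-0.086, edgeR p = 0.0126) and Clock (-0.088, edgeR p = 0.0469) kept theirs. Between Chronic and Acute mice Nr1d1 lost its unadjusted call (0.11, edgeR p = 0.0658) and Arntl gained one (-0.081, edgeR p = 0.022). Per1 and Cry2 had r = 0.583 and Cry2 and Nr1d1 r = 0.564 with this summary removed (both adjusted p = 0.0652). The neuron summary, used alone in the same way, left Per1 (-0.15, edgeR p = 0.0178) as the 1 clock gene with an unadjusted p below 0.05 in Acute versus Water and Arntl (-0.11, edgeR p = 0.00335) in Chronic versus Water, while both called pairs passed (adjusted p = 0.0279 each).

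The annotation placed overlapping genes at 7 of the 10 clock genes, and 5 of these neighbours passed the filter on low counts. Nr1d1 overlaps Thra, a thyroid hormone receptor gene on the opposite strand, at their ends. Thra stood at 815 CPM against 110 for Nr1d1, and the pair had r = 0.726 over 28 mice, a description only. Whether counting used strand is not given in the sources used here, so reads of the shared stretch may have gone to either gene, and the level of Nr1d1 is uncertain to that extent. Dbp overlaps Sphk2 on the opposite strand (r = -0.284), so the same doubt holds for the level of Dbp, and Per3 lies beside Camta1 with an overlap on the same strand (r = 0.416). Cry2 overlaps D930015M05Rik on the opposite strand, which stood at 0.702 CPM (r = -0.098). Clock overlaps the pseudogene Ube2n-ps1 on the same strand, at 28.3 CPM against 86.7 for Clock (r = -0.215). The neighbours of Arntl and Npas2 were below the filter or absent from the tables.

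The genes most like Dbp and Arntl across the 28 mice, among 16256 other genes and by Pearson r alone, were drawn with the 10 clock genes left out of the search. For Dbp the 3 highest were Map2k1 (0.716), Ctxn3 (0.659) and Srpr (0.657), and the 3 lowest Pak3 (-0.801), Tnks (-0.761) and Magi1 (-0.741). For Arntl the 3 highest were Prep (0.761), Cyth2 (0.759) and Ccdc155 (0.754), and the 3 lowest Sox2ot (-0.758), Grb10 (-0.755) and Rhobtb3 (-0.753). Without the 2 mice farthest from the median of the clock gene the 12 values kept their sign, at 0.569 to 0.703 for the highest and -0.821 to -0.607 for the lowest. These are extremes picked from all genes, so their size is a description.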

How the data were processed

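RNA from amygdala punches was prepared by mRNA enrichment with rRNA removal. Per the labels and the study's methods, the authors ran FastQC 0.11.8, quantified reads with Salmon 0.14.1 against mouse GRCm38 (mm10), and deposited estimated counts per gene, 1 table for each batch. Genes with fewer than 10 counts were dropped in their tests and batches were adjusted with ComBat-seq. The strandedness of counting and the number of reads mapped are not given in the sources used here.

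The estimated counts were rounded and both tables were joined on gene identifiers, leaving 49477 shared genes. The 16266 genes whose mean count reached 10 were fitted with edgeR 4.0.16 (R 4.3.3), using TMM factors, a quasi-likelihood model of group and batch over all 28 mice, and Benjamini-Hochberg adjustment over all genes tested. Adjusted and unadjusted p-values were read against 0.05. Levels are CPM with a prior count of 2 on the log2 scale and the batch difference removed. Within-batch exact permutation tests (32340 regroupings against Water, two-sided, smallest possible p = 3.09e-05) and correlations with 100000 shuffles within batch and group were run on log2 CPM. Samples were grouped by their labels, the replicates are separate mice, and no 2 libraries of 1 group and batch agreed within sampling noise. Totals were 20393352 to 22569562 in batch 1 and 20004380 to 20890964 in batch 2.

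The clock genes, the further lists and the named-gene rule were chosen with earlier results of these data known. Named genes are the 10 clock genes, the genes of the further lists with an edgeR p below 0.05 in a comparison or else the 3 with the smallest p, and the 3 genes with the highest and lowest r with Dbp and Arntl. Alternatives were DESeq2 1.42.0, ComBat-seq and surrogate variables (sva 3.50.0), limma-voom (limma 3.58.1), other scalings, filters, batches, offsets for GC content and length, replicate blocks and leaving out each mouse. The fit and the permutation tests were first tested on simulated data. At an adjusted p below 0.05, the fit recovered 51% and 52% of genes changed by 0.3 log2 in Acute and Chronic versus Water. For changes of 0.6 log2 it recovered 82% and 83%, with 15 and 13 false calls among 16266 genes. Changes as small as those of the clock genes were not simulated, so 0 calls do not exclude them. Marker gene summaries are means of log2 CPM. Motifs were counted in RefSeq promoter windows. A gene that the named-gene rule selects is not reported here.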

Additional observations from a re-analysis of the deposited data

Results flagged for a closer look

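In 3 of the 30 sets formed by the 10 clock genes in the 3 groups, 1 mouse stood apart by Dixon's test, which flags about 1 in 20 sets by chance. Cry1 in Chronic mouse 5 of batch 2 was at 14.9 CPM, with the next mouse at 18.5, a gap of 0.629 of the group's range; gaps and ranges here are on the log2 scale. Cry1 in Acute mouse 1 of batch 2 was at 18.3 CPM, with the next at 19.4, a gap of 0.5 of the range. On the CPM scale this gap was 0.485, under the critical value of Dixon's test for 9 mice, while the other two sets stayed past their limits. Cry2 in Water mouse 3 of batch 2 was highest at 145 CPM, with the next at 131, a gap of 0.495 of the range. Leaving out each mouse in turn kept the Cry1 difference of Chronic from Water between -0.087 and -0.028 log2 and the Cry2 difference between 0.029 and 0.070.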

How the results depend on the processing

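The count of clock genes with an adjusted p below 0.05 was 0 in all 3 comparisons under each of 18 alternatives and with each of 28 mice left out, and the lowest adjusted p reached was 0.116 (Arntl, Chronic versus Water). The 3, 2 and 1 genes with an unadjusted p below 0.05 were less stable. In Acute versus Water they became 0 in the second batch alone and 1 with the central amygdala summary (Clock) or the neuron summary (Per1) as a covariate, and were 2 with limma-voom and with GC and length offsets, with or without the replicate block. Per2 lost its call with limma-voom (p = 0.0598), 2 surrogate variables (p = 0.057) and the marker summaries (p = 0.0639), and Clock with GC and length offsets (p = 0.113). In Chronic versus Water they became 0 in the first batch alone, 1 in the second batch alone, with limma-voom, with only the 2 groups compared and with the neuron summary, and 4 with the marker summaries as covariates, with or without Mbp. In Chronic versus Acute they became 0 in the second batch alone, with GC and length offsets and with these offsets plus the replicate block, and 2 with ComBat-seq, limma-voom, 2 surrogate variables or the marker summaries, with or without Mbp. Nr1d1, the 1 gene counted in the report, was not among the 2 with the marker summaries, which were Per3 and Arntl, and it was replaced by Per2 in the first batch (p = 0.0397) and by Arntl with the central amygdala summary (p = 0.022). With each mouse left out the counts were 2 to 3, 1 to 3 and 0 to 2. In Chronic versus Water, Clock lost its unadjusted call without Chronic mouse 1 of batch 2 (-0.068, p = 0.0725), Chronic mouse 3 (-0.085, p = 0.0597) or Water mouse 4 (-0.077, p = 0.0713). The 2 pairs of clock genes that passed became 1 with Spearman's rho, 4 with GC and length trends removed, and 0 within either batch, without the 2 farthest mice and with the marker summaries (with or without Mbp) or the central amygdala summary removed. Fewer mice entered the fits of single batches; the cause of the other changes was not tested. The SD expected from counting was largest for Cry1, the least covered of the clock genes, at 0.071 beside a residual SD of 0.118. Relative to the residual SD it was larger for Arntl, at 0.052 beside 0.067.

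Sign changes were seen where the main log2 difference was 0.065 or less in size. In Acute versus Water, Npas2 was -0.001 with DESeq2 and with RLE scaling, -0.003 with ComBat-seq and with GC and length offsets, -0.026 in the second batch and -0.065 with the neuron summary. Cry2 was -0.002 with the offsets, -0.006 in the first batch and -0.019 with the neuron summary, Dbp -0.025 with the offsets, -0.018 in the first batch, -0.004 with surrogate variables -0.021 with the central amygdala and -0.03 with the neuron summary, Nr1d1 0.012 with surrogate variables, 0.034 in the second batch and 0.008 with the marker summaries (0.011 without Mbp), and Per3 0.038 in the first batch. In Chronic versus Water, Per3 was 0.069 in the first batch and 0.008 with the marker summaries (0.009 without Mbp), Npas2 0.014 in the first batch and Per2 0.002 with limma-voom and with the summaries without Mbp and 0.000 with the central amygdala summary. In Chronic versus Acute, Per1 was -0.029 in the second batch, -0.021 with the marker summaries (-0.017 without Mbp) and -0.015 with the replicate block and offsets, Clock -0.024 and Cry2 -0.003 in the second batch, and Cry1 0.007 in the first batch and 0.01 with the marker summaries (0.012 without Mbp). Leaving out single mice gave ranges across 0 in Acute versus Water for Npas2 (-0.025 to 0.023), Cry2 (-0.007 to 0.033), Dbp (-0.014 to 0.034) and Nr1d1 (-0.068 to 0.000), in Chronic versus Water for Per2 (-0.045 to 0.008), and in Chronic versus Acute for Cry1 (-0.042 to 0.017), Per1 (-0.006 to 0.065) and Per3 (-0.005 to 0.059).

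The replicate numbers of the labels did not pair mice: same-numbered mice of 2 groups had correlations of their deviations from -0.346 to 0.338. With the replicate block, 3, 3 and 1 clock genes had an unadjusted p below 0.05 and 0 an adjusted one, with Per1 at -0.128 (p = 0.0186) and Clock at -0.122 (p = 0.00744) in Acute versus Water. The marker summaries, with or without Mbp, and the central amygdala and neuron summaries were chosen as covariates after seeing the data.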
